A study of Mus musculus with 8 samples.

Results

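The TGF-beta superfamily signals through secreted ligands, their binding proteins and antagonists, paired cell surface receptors, and Smad proteins inside the cell. The 48 mouse genes described here were taken by symbol from the 54532 entries of a gene count table, as the ligands, latent binding proteins, receptors, antagonists, Smads and Id targets of the TGF-beta, activin and BMP branches, together with Tgfbi, a matrix protein named after its induction by TGF-beta. Each of the 48 symbols stood on the table, and 45 genes passed the filter on low counts that left 14150 genes to test.

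Primary lung fibroblasts (pFBs) had been grown from lung tissue of female mice on a C57/black strain background, with no treatment, and their polyadenylated RNA was sequenced as 4 WT and 4 HOMO libraries. WT pFBs came from wild type mice, and HOMO pFBs came from mice homozygous for a knocked-in human IGFBP5 (hIGFBP5), a secreted IGF-binding protein, driven in all tissues by the Ef1a1 promoter. The libraries carry the names of their labels, WT1 to WT4 for wild type and HOMO1 to HOMO4 for homozygous mice. How many mice they came from, the age of the mice and the passage of the cells in each library are not given in the sources used here, so p-values measure the spread between these libraries, which may be technical.

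In this pathway, latent TGF-beta is stored in the matrix by latent TGF-beta binding proteins and must be released before it binds its receptors. A ligand brings type II receptors together with type I receptors, whose kinase phosphorylates receptor Smads. TGF-beta and activin act mainly through Smad2 and Smad3, BMPs and some GDFs mainly through Smad1, Smad5 and Smad9, and both arms share Smad4. In the lung, TGF-beta is the best known inducer of matrix production by fibroblasts, and Id genes are classical targets of BMP.

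Totals ranged from 17236521 to 29028769 counts per WT library and from 19009027 to 31987790 per HOMO library. Levels are given as CPM, counts scaled to library sizes that were corrected by the TMM method, and 3 counts, the floor used here, came to between 0.091 and 0.172 CPM, which covers counting error only. The 9 fibroblast markers examined summed to between 12937 and 16618 CPM in WT and between 14002 and 24381 CPM in HOMO libraries. Col1a1, Col1a2 and Vim made up most of these sums. By the test described below, 2 of the 9 were called lower in HOMO and 0 higher. These were Pdgfrb (log2 fold change -0.97) and Vim (-0.65), while Thy1 (-1.62) was not called. The human transgene was not analysed here. Mouse Igfbp5 stood at 7.31, 9.65, 409 and 4.34 CPM in WT1 to WT4 and between 1.07 and 2.86 CPM in HOMO libraries. It was called lower in HOMO (edgeR adjusted p = 0.0469), with WT3 far above the other WT libraries. Of the 12 pairs of libraries within a genotype, 3 were close to identical: WT1 with WT2, HOMO1 with HOMO2, and HOMO3 with HOMO4. Their coefficients of variation beyond counting ran from 4.71% to 7.65%, against 30.0% to 56.5% in the other 9 pairs. The differences within these 3 pairs exceeded sampling noise, which does not show that the paired libraries are independent. All 8 libraries were kept, and whether the pairs share a mouse or a culture is not given in the sources used here. WT3 and WT4 stood apart in the sum of 8 macrophage and other leukocyte markers, at 1965 and 1142 CPM beside 57.1 to 190 CPM in the other 6 libraries. Lyz2 made up most of these sums, at 1707 CPM in WT3 and 912 CPM in WT4, and Cd14 did not follow in WT4, at 20.9 CPM beside 28.8 to 37.7 CPM in HOMO libraries.

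A gene was called where edgeR's quasi-likelihood test gave a Benjamini-Hochberg adjusted p under 0.05 over all 14150 genes and the absolute log2 fold change of HOMO over WT exceeded 0.6. Of the 45 tested members, 11 were called (24.4%), beside 12.1% of all genes. Lower in HOMO were 7 members, the ligands Tgfb2, Inhba and Bmp6, the binding protein Ltbp2, the type I receptors Acvrl1 and Bmpr1b, and the antagonist Fstl3, with 6.18% of all genes called in that direction. The 4 higher members were the ligand Gdf7, the binding protein Ltbp4, the type I receptor Acvr1b and the co-receptor Tgfbr3, with 5.94% of all genes called higher. All 11 were ligands, binding proteins, receptors or antagonists, of which 32 were tested, and 0 of the 8 Smads and 4 Id genes were called. By unadjusted p under 0.05, 19 members passed, 3 of them Smads or Id genes. The share of all genes under that p was not counted, here or below. Such counts are therefore no result about the members. The median absolute log2 fold change was 0.62 over the members and 0.41 over all genes tested. In 16 members (35.6%) the 4 WT and 4 HOMO libraries did not overlap, beside 27.3% of all genes.

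**Figure D1:**
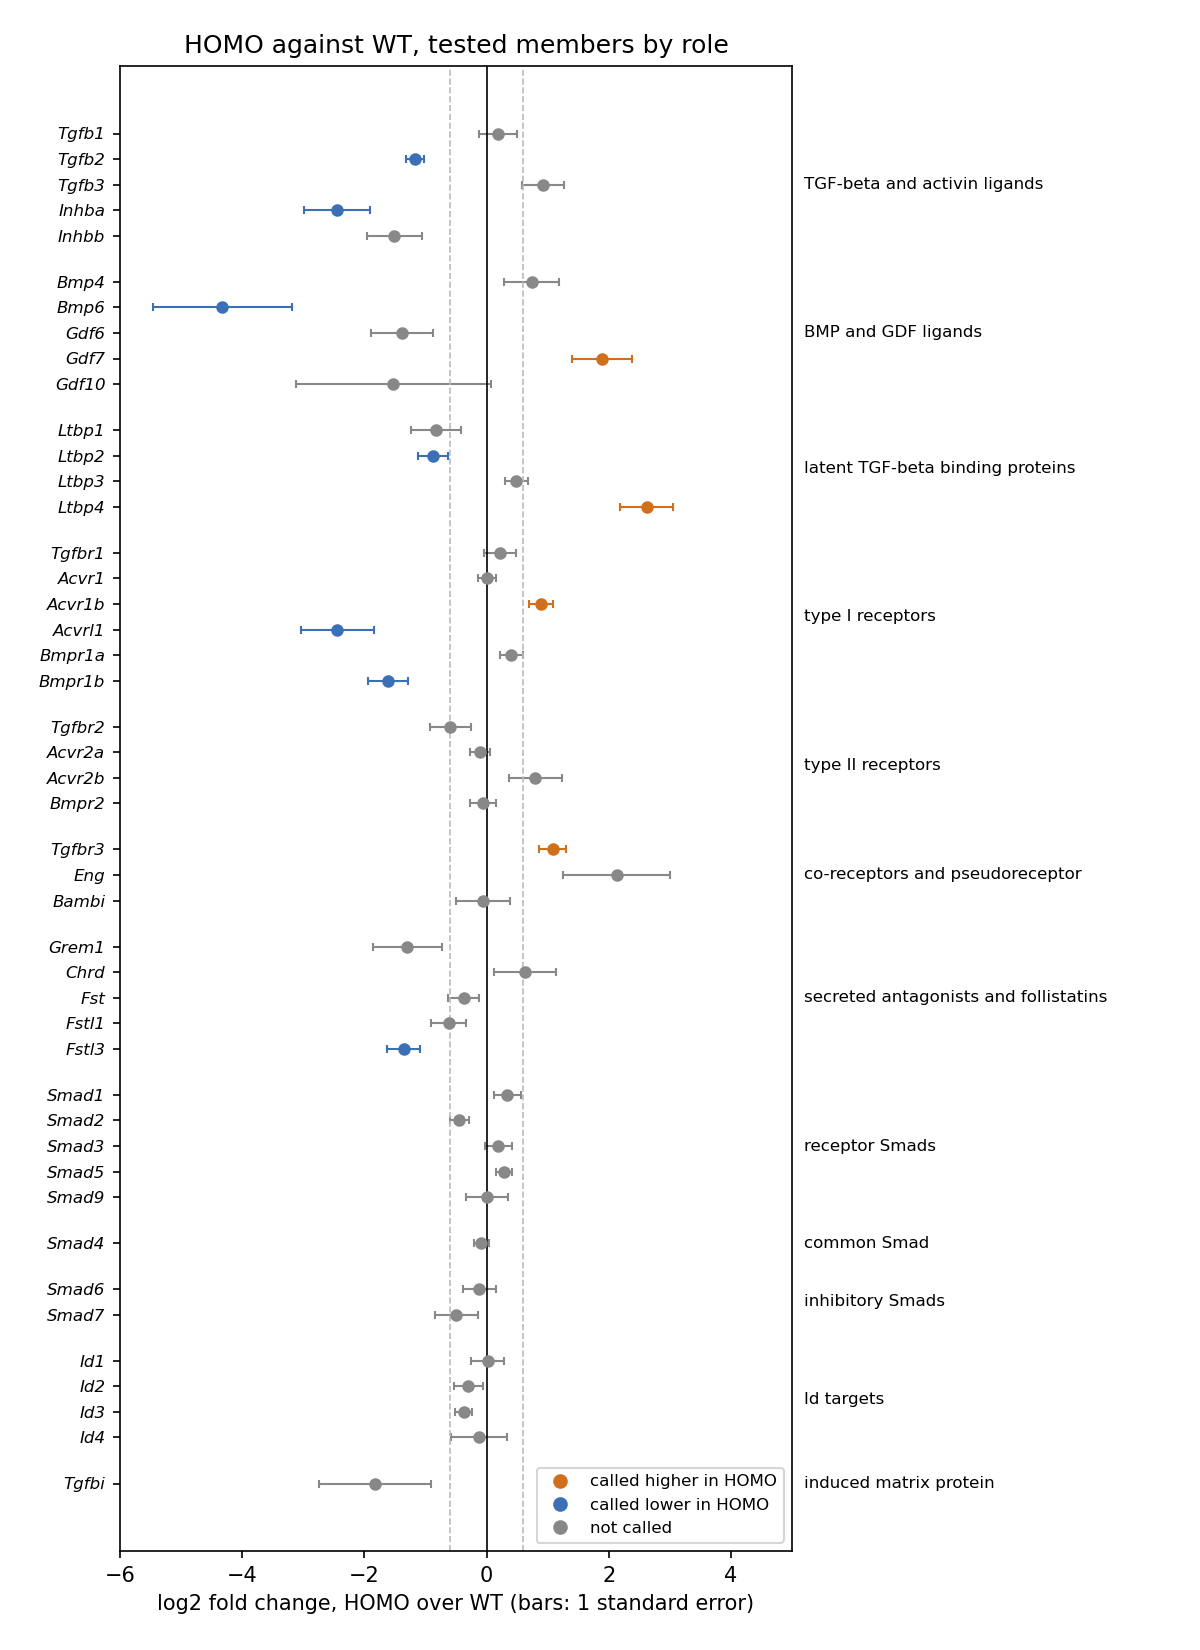
Log2 fold change of HOMO over WT for the 45 tested members, ordered by role, with bars of 1 standard error and dashed lines at a log2 fold change of 0.6 in each direction. Coloured points are the 11 called members, 7 lower and 4 higher; every Smad and Id gene lies between the dashed lines.

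These calls rest on the near-identical libraries counting as separate. With each such pair summed to 1 library, which left 3 WT and 2 HOMO libraries, edgeR called 0 members and 0 of all genes, while 11 members had an unadjusted p under 0.05 and all 11 called members kept their direction. Without HOMO1, or without HOMO2, edgeR called 2 members, Tgfb2 and Ltbp4 in both cases, with 3.52% and 3.56% of all genes called. Without WT1 or WT2 the calls of Gdf7, Ltbp2 and Acvr1b were lost, without HOMO3 those of Bmp6, Gdf7 and Ltbp2, and without HOMO4 also that of Acvrl1. Of all genes, 9.75%, 8.29%, 7.11% and 6.72% were called without WT1, WT2, HOMO3 and HOMO4. Without both WT3 and WT4, the libraries with the highest leukocyte marker sums, all 11 stayed called among 19 called members. The share of all genes called was 20.9% there, beside 12.1% with all libraries.

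The promoters of 4 called members are shown because 3 of them, from ligands and an antagonist that were lower in HOMO, hold the letters TATAAA near the start of the gene, and the fourth, from a receptor that was higher, does not. Each run gives the 100 bases before the gene's start as RefSeq places it on GRCm38.p6, 5′ to 3′ on the gene's strand, with TATAAA, its reverse complement TTTATA, or CACGTG in capitals.
Tgfb2, minus strand of chr1:186705990-186706089: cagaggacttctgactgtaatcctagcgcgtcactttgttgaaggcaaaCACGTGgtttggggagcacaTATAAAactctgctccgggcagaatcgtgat
Inhba, plus strand of chr13:16011751-16011850: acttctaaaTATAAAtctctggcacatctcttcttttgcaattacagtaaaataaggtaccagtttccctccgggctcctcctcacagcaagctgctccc
Fstl3, plus strand of chr10:79777174-79777273: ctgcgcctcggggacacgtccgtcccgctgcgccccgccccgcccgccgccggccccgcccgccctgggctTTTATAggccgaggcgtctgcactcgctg
Acvr1b, plus strand of chr15:101173972-101174071: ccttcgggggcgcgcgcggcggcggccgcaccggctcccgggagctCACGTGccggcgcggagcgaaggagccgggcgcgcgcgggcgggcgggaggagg

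In these runs TATAAA began 31 bases before the start in Tgfb2 and 91 bases before it in Inhba, and on the opposite strand 29 bases before it in Fstl3. RefSeq promoters were at hand for 35 members, 6 of the 7 called lower and 3 of the 4 called higher, as 43 promoters. Searched on both strands over the 250 bases before the start, TATAAA stood in 4 of these 43 (9.30%), of Tgfb2, Inhba, Fstl3 and Bmpr1b, and in 12.4% of the 32851 promoters of all genes. All 4 genes were called lower. CACGTG stood in the promoters of 4 member genes, Tgfb2, Bmp6, Bmp4 and Acvr1b, and in 6.02% of all promoters. GGCGCC stood in 27.9% of the member promoters and 9.59% of all promoters, and 10 of its 11 member genes were not called, Id2, Id4 and Grem1 among them, while Ltbp4 was. The motifs do not overlap in the runs shown. They were picked after the values were seen, so these matches are a description.

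Among the TGF-beta and activin ligands, 2 of 5 were called, both lower in HOMO, and 4 of 5 did not overlap between genotypes. Tgfb2, the TGF-beta isoform that depends most on the co-receptor Tgfbr3 for binding, stood at 55.8, 60.8, 80.2 and 73.5 CPM in WT1 to WT4 and at 31.9, 28.7, 27.98 and 30.8 CPM in HOMO1 to HOMO4. Every HOMO library was under every WT library, and the HOMO libraries lay close together. The log2 fold change was -1.18 (SE 0.15, n = 4 libraries per genotype, edgeR adjusted p = 0.00358), and it stayed between -1.26 and -1.09 with any 1 library left out. Tgfb2 is on the minus strand of chromosome 1 (GRCm38), from 186622792 to 186705989.

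Inhba, which encodes the beta A subunit that pairs to form activin A, stood at 206, 165, 53.3 and 213 CPM in WT1 to WT4 and at 16.1, 13.6, 42.7 and 44.5 CPM in HOMO1 to HOMO4. WT3 came closest to the HOMO libraries, and HOMO1 and HOMO2 were lowest. HOMO over WT came to a log2 fold change of -2.45 (SE 0.54, edgeR adjusted p = 0.0237). Inhbb, which encodes the beta B subunit of activin B, was also lower in every HOMO library than in any WT library but did not pass the test, with 56.4, 65.8, 94.1 and 170 CPM in WT1 to WT4 and 18.5, 21.1, 48.8 and 47.6 CPM in HOMO1 to HOMO4 (log2 fold change -1.51, SE 0.45, edgeR adjusted p = 0.0577). DESeq2, which called 16.5% of the genes it tested, called Inhbb at the same thresholds. On simulated counts, 27.0% of DESeq2 calls were false, beside 6.45% of edgeR calls.

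Tgfb3, the third isoform, stood at 69.5, 76.7, 152 and 209 CPM in WT1 to WT4 and at 265, 268, 214 and 212 CPM in HOMO1 to HOMO4, so the genotypes did not overlap, though WT4 reached nearly to the lowest HOMO library. The log2 fold change of 0.92 (SE 0.34) was not called (edgeR adjusted p = 0.106), and without WT4 it was 1.27 and called. Genes on chromosome 12, where Tgfb3, Gdf7, Ltbp2 and Id2 lie, were higher in WT4 than in the other WT libraries by a median of 0.65 on the log2 scale over 501 genes, and the part of this shift in their values was not tested. Tgfb1, the isoform most studied in fibrosis, ranged from 29.4 to 73.3 CPM in WT and from 49.0 to 63.0 CPM in HOMO libraries, with a log2 fold change of 0.19 and a 95% interval from -0.52 to 0.90. Limma-voom with sample weights called Tgfb1 higher (0.94), as did edgeR without both WT3 and WT4 (0.92). It was highest in WT3 and WT4 within WT, the libraries with the highest leukocyte marker sums, and the part of other cells in its level was not tested. Genes on chromosome 7, where Tgfb1 and Ltbp4 lie, were higher in WT3 than in the other WT libraries. The median was 0.36 on the log2 scale over 1045 genes, and the part of this shift in their values was not tested either.

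**Figure D2:**
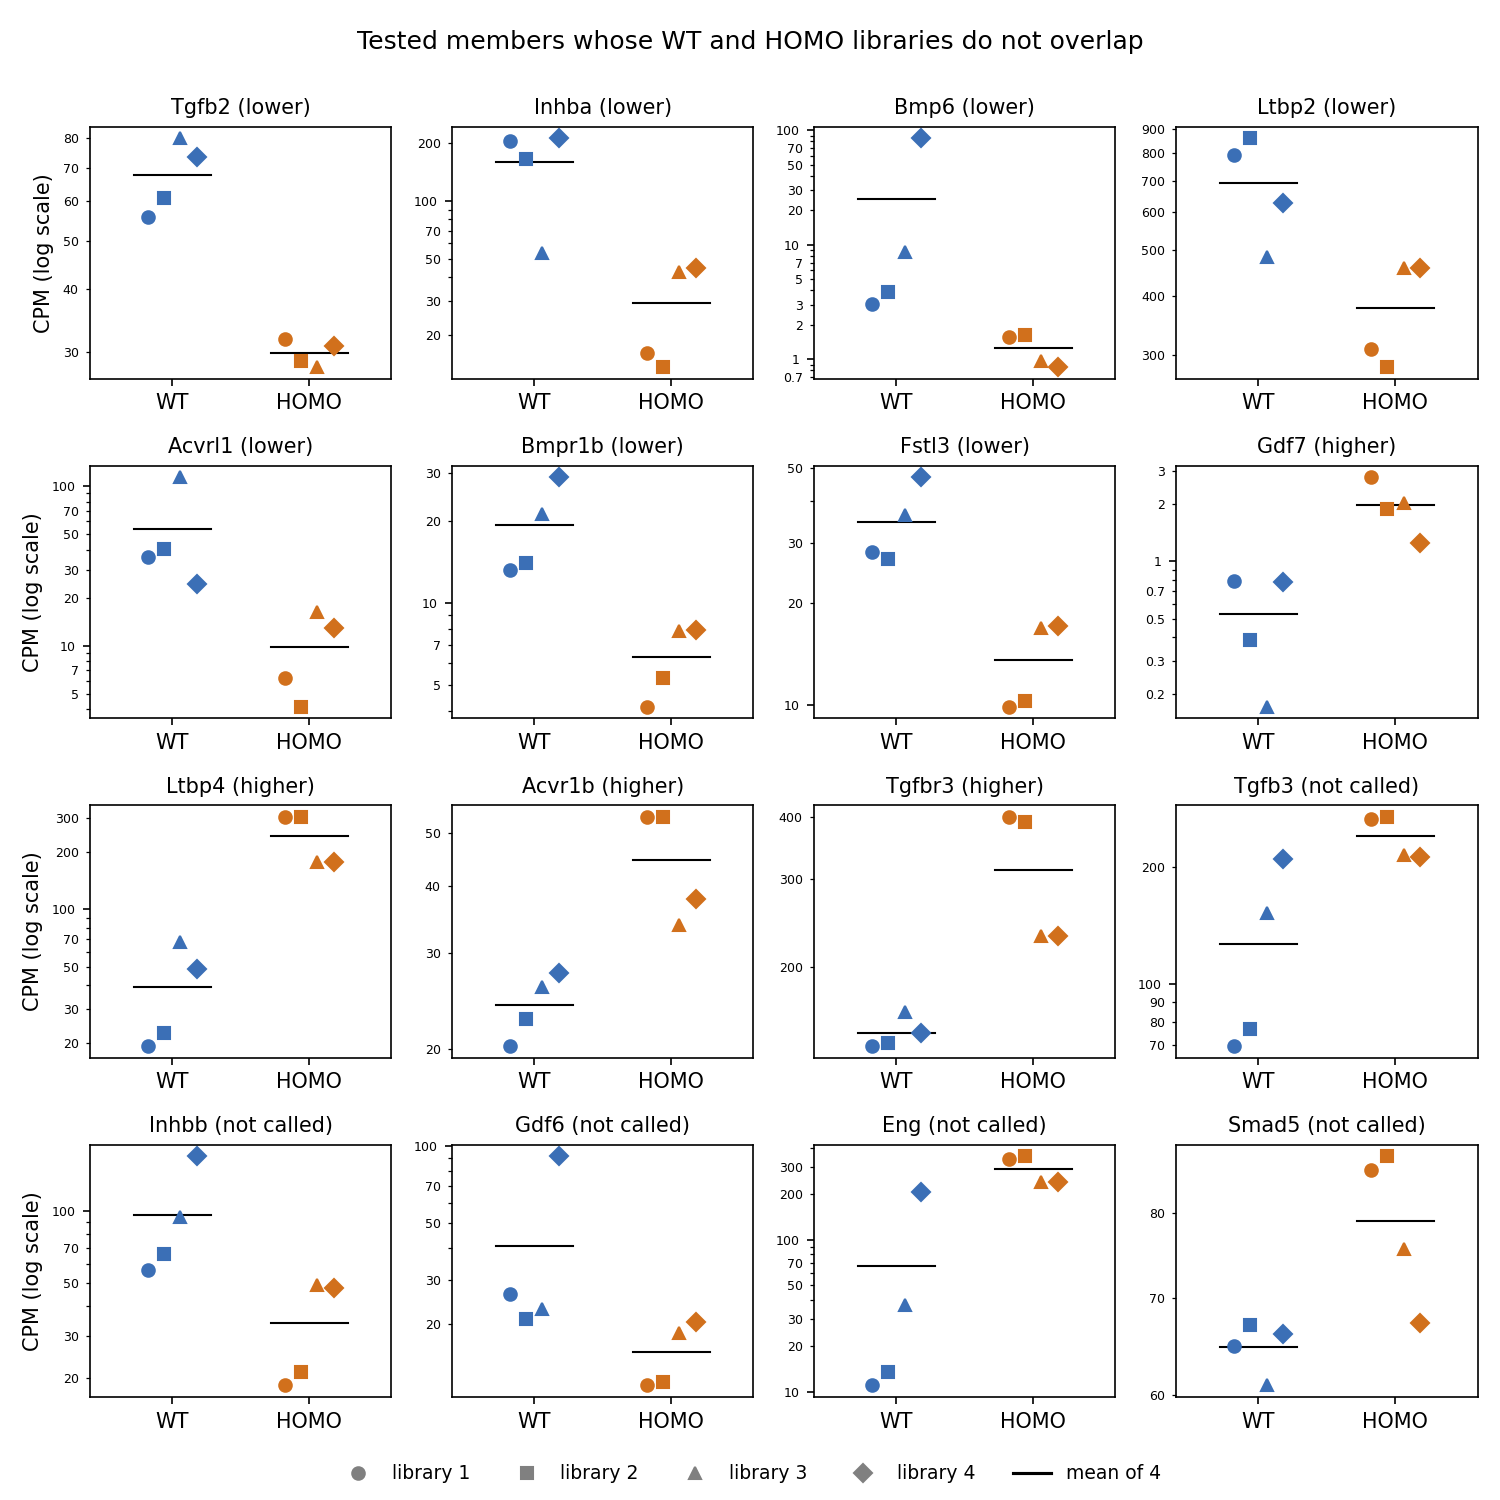
CPM on a log axis of the 16 tested members whose WT and HOMO libraries did not overlap, with 1 panel per gene, 1 symbol per library and a line at the mean of each genotype. The first 11 panels are the called members and the last 5, Tgfb3, Inhbb, Gdf6, Eng and Smad5, were not called; HOMO1 and HOMO2 often lie farther from WT than HOMO3 and HOMO4.

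Of the 7 BMP and GDF ligands, 5 were tested and 2 were called, in opposite directions. Bmp6, a BMP best known for setting hepcidin in iron balance, stood at 3.04, 3.90, 8.66 and 85.7 CPM in WT1 to WT4 and at 1.56, 1.63, 0.963 and 0.852 CPM in HOMO1 to HOMO4. All HOMO libraries were lower than all WT libraries, but the mean of WT was carried by WT4. With all libraries the log2 fold change was -4.32 (SE 1.14, edgeR adjusted p = 0.0407), and without WT4 it was -2.04 and still called. Gdf7, a ligand known from the roof plate and tendon, was scarce, with 0.788, 0.386, 0.172 and 0.774 CPM in WT1 to WT4 and 2.76, 1.88, 2.03 and 1.25 CPM in HOMO1 to HOMO4. That is between 3 and 20 counts in WT and between 25 and 62 in HOMO libraries, with a log2 fold change of 1.88 (SE 0.49, edgeR adjusted p = 0.0394).

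Gdf6, a relative of Gdf7, was lower in all HOMO libraries, at 11.5, 11.8, 18.5 and 20.5 CPM, than in WT1 to WT4, at 26.4, 21.0, 22.9 and 91.7 CPM, and was not called by edgeR (log2 fold change -1.38, SE 0.50, adjusted p = 0.0999), though DESeq2 called it. WT4 was again the high library, and without it the log2 fold change was -0.59. Bmp4, a main BMP of the lung, stood at 79.4, 94.1, 29.0 and 159 CPM in WT1 to WT4 and at 184, 194, 111 and 114 CPM in HOMO1 to HOMO4 (log2 fold change 0.74, SE 0.45, edgeR adjusted p = 0.287). WT3 was the lowest library and WT4 overlapped with HOMO.

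Gdf10, also known as Bmp3b, turned on a single library. It stood at 0.900, 1.07, 162 and 0.426 CPM in WT1 to WT4 and at 9.90, 11.9, 16.6 and 18.6 CPM in HOMO1 to HOMO4, so that every HOMO library was above WT1, WT2 and WT4 and far under WT3. With all libraries the log2 fold change was -1.52 (SE 1.6, edgeR adjusted p = 0.547), and without WT3 it was 4.15 (adjusted p = 0.00169). Bmp2, a ligand that the filter left out, had the same shape at a lower level, with 0.113, 0.0858, 9.01 and 0.0774 CPM in WT1 to WT4 and 0.981, 1.24, 0.456 and 0.150 CPM in HOMO1 to HOMO4. Gdf5, a ligand of joint formation, had 1 count in 1 library, WT2, and none elsewhere.

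The latent TGF-beta binding proteins split, with 1 of 4 called higher, 1 called lower and 2 not called. Ltbp4, which holds latent TGF-beta and takes part in elastic fibre assembly, stood at 19.2, 22.6, 67.0 and 48.5 CPM in WT1 to WT4 and at 305, 306, 178 and 177 CPM in HOMO1 to HOMO4. The lowest HOMO library was well above the highest WT library, and the log2 fold change of 2.62 (SE 0.44, edgeR adjusted p = 0.00904) was the largest increase among the tested members. It stayed called with any 1 library left out, at a log2 fold change between 2.39 and 2.999. Ltbp4 is on the minus strand of chromosome 7, from 27305136 to 27337692.

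Ltbp2, which binds fibrillin rather than latent TGF-beta, moved the other way, with 794, 862, 484 and 628 CPM in WT1 to WT4 and 309, 282, 457 and 457 CPM in HOMO1 to HOMO4. WT3 lay next to HOMO3 and HOMO4, and the log2 fold change of -0.88 (SE 0.24) was just under the threshold (edgeR adjusted p = 0.0469). The call was lost with any 1 library other than WT3 left out. Per kb of exon, the level of Ltbp4 was between 0.031 and 0.175 of that of Ltbp2 in WT libraries and between 0.491 and 1.37 of it in HOMO libraries. Ltbp1, the best known carrier of latent TGF-beta, ranged from 308 to 846 CPM in WT and from 170 to 391 CPM in HOMO libraries, and Ltbp3 from 418 to 673 CPM and from 620 to 813 CPM. Neither was called (log2 fold changes -0.83 and 0.48, edgeR adjusted p = 0.195 and 0.119). Ltbp3 was called higher by limma-voom with sample weights, and by edgeR without WT3 (0.64) and without both WT3 and WT4.

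**Figure D3:**
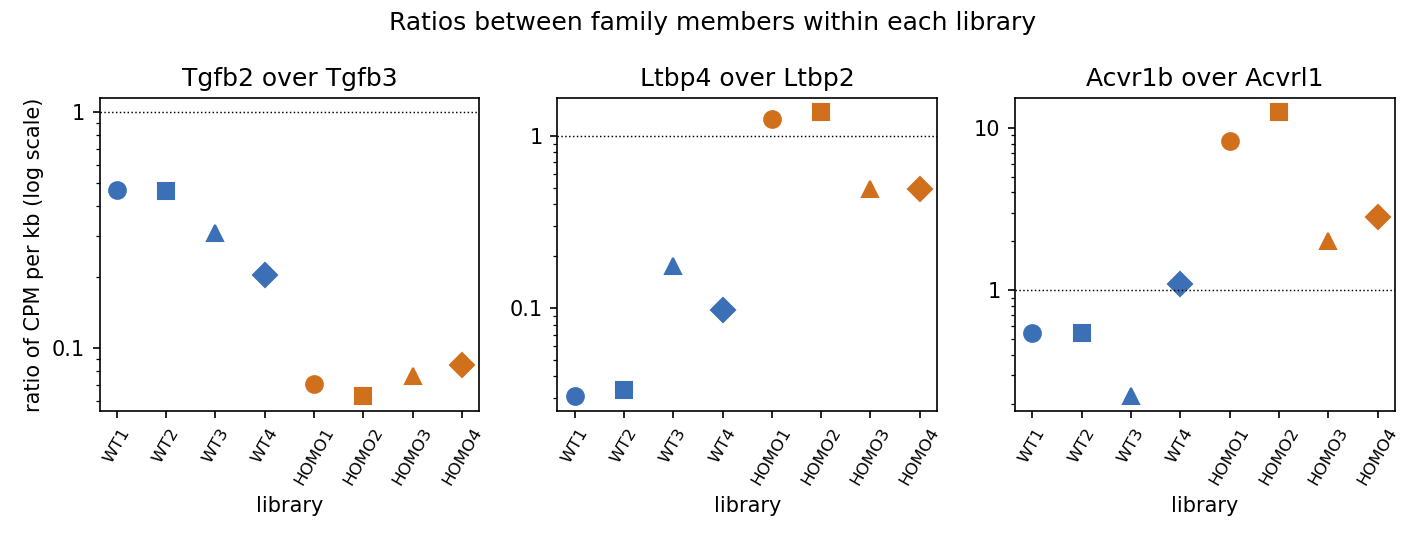
Ratio of CPM per kb of exon between 2 members of a family in each of the 8 libraries, on log axes, with a dotted line at 1. Tgfb2 over Tgfb3 runs from 0.205 to 0.469 in WT and from 0.063 to 0.085 in HOMO, and Ltbp4 over Ltbp2 and Acvr1b over Acvrl1 are higher in every HOMO library than in any WT library; the pairs were chosen after the values were seen.

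Of the 6 type I receptors, 3 were called, and of the 4 type II receptors 0, also at an unadjusted p under 0.05. Acvr1b, the activin receptor also called ALK4, stood at 20.3, 22.7, 26.1 and 27.6 CPM in WT1 to WT4 and at 53.5, 53.6, 33.8 and 37.7 CPM in HOMO1 to HOMO4. The genotypes did not overlap, and HOMO1 and HOMO2 were well above HOMO3 and HOMO4. The log2 fold change was 0.89 (SE 0.20, edgeR adjusted p = 0.0236).

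Acvrl1, or ALK1, a receptor for BMP9 and BMP10 that is best known from endothelium, stood at 35.8, 40.2, 113 and 24.4 CPM in WT1 to WT4 and at 6.24, 4.14, 16.2 and 12.9 CPM in HOMO1 to HOMO4. WT3 was the highest library, and HOMO1 and HOMO2 were the lowest. The log2 fold change was -2.44 (SE 0.59, edgeR adjusted p = 0.0319), and -1.77 without WT3. The 7 endothelial markers summed to between 2.31 and 8.05 CPM in WT and between 2.63 and 5.93 CPM in HOMO libraries, and Tie1 and Emcn had 3 counts or fewer in every library. Acvrl1 and Acvr1b lie 28.7 kb apart on the plus strand of chromosome 15, and moved in opposite directions. Per kb of exon, Acvr1b stood between 0.222 and 1.09 of Acvrl1 in WT libraries and between 2.02 and 12.5 of it in HOMO libraries.

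Bmpr1b, the BMP receptor ALK6, stood at 13.2, 14.1, 21.2 and 29.0 CPM in WT1 to WT4 and at 4.15, 5.29, 7.86 and 7.97 CPM in HOMO1 to HOMO4. Every HOMO library was lower than every WT library (log2 fold change -1.62, SE 0.33, edgeR adjusted p = 0.0182). Bmpr1a, the related receptor ALK3, was more abundant, at 199 to 278 CPM in WT and 250 to 368 CPM in HOMO libraries, and was not called (log2 fold change 0.40, 95% interval -0.02 to 0.83). Tgfbr1, the TGF-beta receptor ALK5, ranged from 23.1 to 56.0 CPM in WT and from 39.3 to 42.6 CPM in HOMO libraries (log2 fold change 0.22, interval -0.36 to 0.80). Acvr1, the BMP receptor ALK2, had a log2 fold change of 0.01 with an interval from -0.31 to 0.33.

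Among the type II receptors, Tgfbr2, the receptor that binds TGF-beta itself, was highest in WT3 and WT4, at 422 and 355 CPM, beside 141 and 168 CPM in WT1 and WT2 and 169 to 193 CPM in HOMO libraries (log2 fold change -0.59, interval -1.36 to 0.17). The activin receptor Acvr2a had a log2 fold change of -0.11 (interval -0.48 to 0.26), and its relative Acvr2b, at 0.689 to 3.74 CPM the scarcest receptor here, 0.80 (interval -0.18 to 1.78). The BMP receptor Bmpr2, mutated in heritable pulmonary hypertension, had a log2 fold change of -0.05 (interval -0.54 to 0.43). The intervals of Acvr2a and Bmpr2 lie within a 2-fold change in either direction, and those of Tgfbr2 and Acvr2b do not.

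Of the co-receptors and the pseudoreceptor, 1 of 3 was called. Tgfbr3, or betaglycan, which presents TGF-beta2 to its signalling receptors, stood at 139, 141, 163 and 148 CPM in WT1 to WT4 and at 400, 391, 231 and 231 CPM in HOMO1 to HOMO4. The WT libraries were close together and the HOMO libraries all higher, in pairs. HOMO exceeded WT by a log2 fold change of 1.08 (SE 0.22, edgeR adjusted p = 0.0171). So the ligand Tgfb2 was lower while its co-receptor was higher in HOMO.

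Eng, or endoglin, a co-receptor that works with Acvrl1, stood at 10.97, 13.4, 37.4 and 205 CPM in WT1 to WT4 and at 337, 354, 240 and 241 CPM in HOMO1 to HOMO4. All HOMO libraries were higher than all WT libraries, but WT4 was far nearer to HOMO than to WT1 and WT2. The log2 fold change of 2.13 (SE 0.87) was not called (edgeR adjusted p = 0.132); DESeq2 called it, and without WT4 edgeR gave 3.83 and called it. Bambi, a pseudoreceptor that lacks a kinase, ranged from 4.80 to 13.1 CPM in WT and from 4.01 to 11.1 CPM in HOMO libraries, with a log2 fold change of -0.06 and an interval from -1.06 to 0.94.

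Of the secreted antagonists and follistatins, 5 of 6 were tested and 1 was called. Fstl3, a follistatin relative that binds activin and myostatin, stood at 28.2, 26.9, 36.3 and 46.9 CPM in WT1 to WT4 and at 9.85, 10.2, 16.9 and 17.04 CPM in HOMO1 to HOMO4. Every HOMO library was lower than every WT library (log2 fold change -1.36, SE 0.27, edgeR adjusted p = 0.0163). Of its exon bases, 47.3% are shared with Prss57 on the opposite strand, and whether counting used strand is not given in the sources used here. Prss57 had at most 6 counts in any library.

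Fst, or follistatin, which binds activin most tightly, was not called, at 24.8 to 58.8 CPM in WT and 25.3 to 32.2 CPM in HOMO libraries (log2 fold change -0.38, interval -0.97 to 0.21). Nog, which encodes the BMP antagonist noggin and was left out by the filter, was counted 18, 16, 8 and 8 times in the WT libraries and 0, 0, 2 and 3 times in the HOMO libraries, in the order of their numbers. Summed, that is 50 against 5 counts, a ratio of WT over HOMO of 11.3 with a 95% counting interval from 4.53 to 36.3, and an exact two-sided permutation test of CPM gave p = 0.0286, the smallest that 70 assignments allow. This test too takes the near-identical libraries as separate, and summed they would leave too few to reach such a p. DESeq2 called Nog lower.

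Grem1, which encodes the BMP antagonist gremlin, was the most abundant member per kb of exon in both genotypes, with a mean of 1069 CPM per kb in WT and 436 CPM per kb in HOMO. In CPM it stood at 1741, 1857, 10057 and 4088 in WT1 to WT4 and at 1268, 1333, 2337 and 2297 in HOMO1 to HOMO4. WT3 stood far above the rest, HOMO3 and HOMO4 lay above WT1 and WT2, and the log2 fold change of -1.29 (SE 0.57) was not called (edgeR adjusted p = 0.155) and came to -0.51 without WT3. Chrd, or chordin, a BMP antagonist too, stood at 3.43, 6.56, 19.7 and 16.5 CPM in WT1 to WT4 and at 22.5, 21.3, 12.01 and 15.4 CPM in HOMO1 to HOMO4, which overlap, and was not called (log2 fold change 0.62, edgeR adjusted p = 0.427). Limma-voom with sample weights called Chrd higher, as did edgeR without both WT3 and WT4. Fstl1, a follistatin-like secreted protein, ranged from 444 to 915 CPM in WT and from 303 to 493 CPM in HOMO libraries (log2 fold change -0.62, interval -1.27 to 0.03).

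None of the 8 Smads and 4 Id genes was called by edgeR, 3 of these 12 had an unadjusted p under 0.05, and DESeq2 also called 0, while limma-voom with sample weights, which called 25.3% of all genes, called Smad7 and Id2. Their log2 fold changes ran from -0.49 to 0.34, and 10 of the 12 had a 95% interval within a 2-fold change in either direction. The ligands, binding proteins, receptors and antagonists had a median absolute log2 fold change of 0.88, and the Smads and Id genes one of 0.24, beside 0.41 for all genes. Whether the groups differ was not tested.

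Among the receptor Smads, Smad2, a carrier of the TGF-beta and activin signal, stood at 42.2 to 58.2 CPM in WT and 31.9 to 42.8 CPM in HOMO libraries (log2 fold change -0.44, interval -0.79 to -0.10, edgeR adjusted p = 0.0837), and Smad3, its partner, at 84.4 to 163 CPM and 136 to 147 CPM (log2 fold change 0.19, interval -0.32 to 0.70). Smad5, which carries the BMP signal, was 64.9, 67.1, 60.9 and 66.1 CPM in WT1 to WT4 and 85.6, 87.6, 75.6 and 67.2 CPM in HOMO1 to HOMO4, without overlap but with HOMO4 next to WT2. Its log2 fold change was 0.29 (SE 0.12, edgeR adjusted p = 0.15). The other BMP Smads, Smad1 and Smad9, had log2 fold changes of 0.34 and 0.01, with intervals from -0.17 to 0.85 and from -0.76 to 0.77. Smad4, the common partner, was the steadiest of the 12, at 74.4 to 97.7 CPM in WT and 77.5 to 83.3 CPM in HOMO libraries (log2 fold change -0.09, interval -0.36 to 0.19). Genes on chromosome 8, where Smad1 lies, had a median log2 fold change of 0.37 over 790 genes. On chromosome 18, where Smad2 and Smad7 lie, the median was -0.31 over 377 genes. Smad4 and Bambi (-0.06) lie there too. The part of these shifts in the members' values was not tested.

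Smad6 and Smad7, which block the receptor Smads and are themselves induced by the pathway, were lowest in WT3. Smad7 stood at 121, 122, 37.5 and 115 CPM in WT1 to WT4 and at 58.9, 54.2, 87.4 and 80.9 CPM in HOMO1 to HOMO4. Outside WT3, all HOMO libraries were below all WT libraries; with WT3 the log2 fold change was -0.49 (interval -1.30 to 0.31), and without it -0.77 and called. Smad6 stood at 38.4 CPM in WT3, at 75.8 to 87.2 CPM in the other WT libraries and at 54.5 to 83.8 CPM in HOMO libraries (log2 fold change -0.12, interval -0.72 to 0.49).

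The Id genes encode helix-loop-helix proteins that hold back differentiation factors. Id1 ranged from 43.2 to 102 CPM in WT and from 67.9 to 78.5 CPM in HOMO libraries (log2 fold change 0.02, interval -0.61 to 0.64). Id2 ranged from 39.0 to 74.4 CPM and from 41.4 to 61.9 CPM (log2 fold change -0.30, interval -0.83 to 0.23), and Id3 from 138 to 205 CPM and from 135 to 146 CPM (log2 fold change -0.38, interval -0.71 to -0.05, edgeR adjusted p = 0.115). Id4, the scarcest, split the HOMO libraries, at 4.77 and 4.39 CPM in HOMO1 and HOMO2 and 16.9 and 16.4 CPM in HOMO3 and HOMO4, around the 10.03 to 13.8 CPM of WT. Tgfbi, the induced matrix protein, stood at 4.56, 5.10, 31.0 and 2.01 CPM in WT1 to WT4 and at 0.981, 1.24, 5.17 and 4.71 CPM in HOMO1 to HOMO4. WT3 again stood above the rest, and the log2 fold change of -1.82 (SE 0.92) was not called (edgeR adjusted p = 0.206) and came to -0.37 without WT3.

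**Figure D4:**
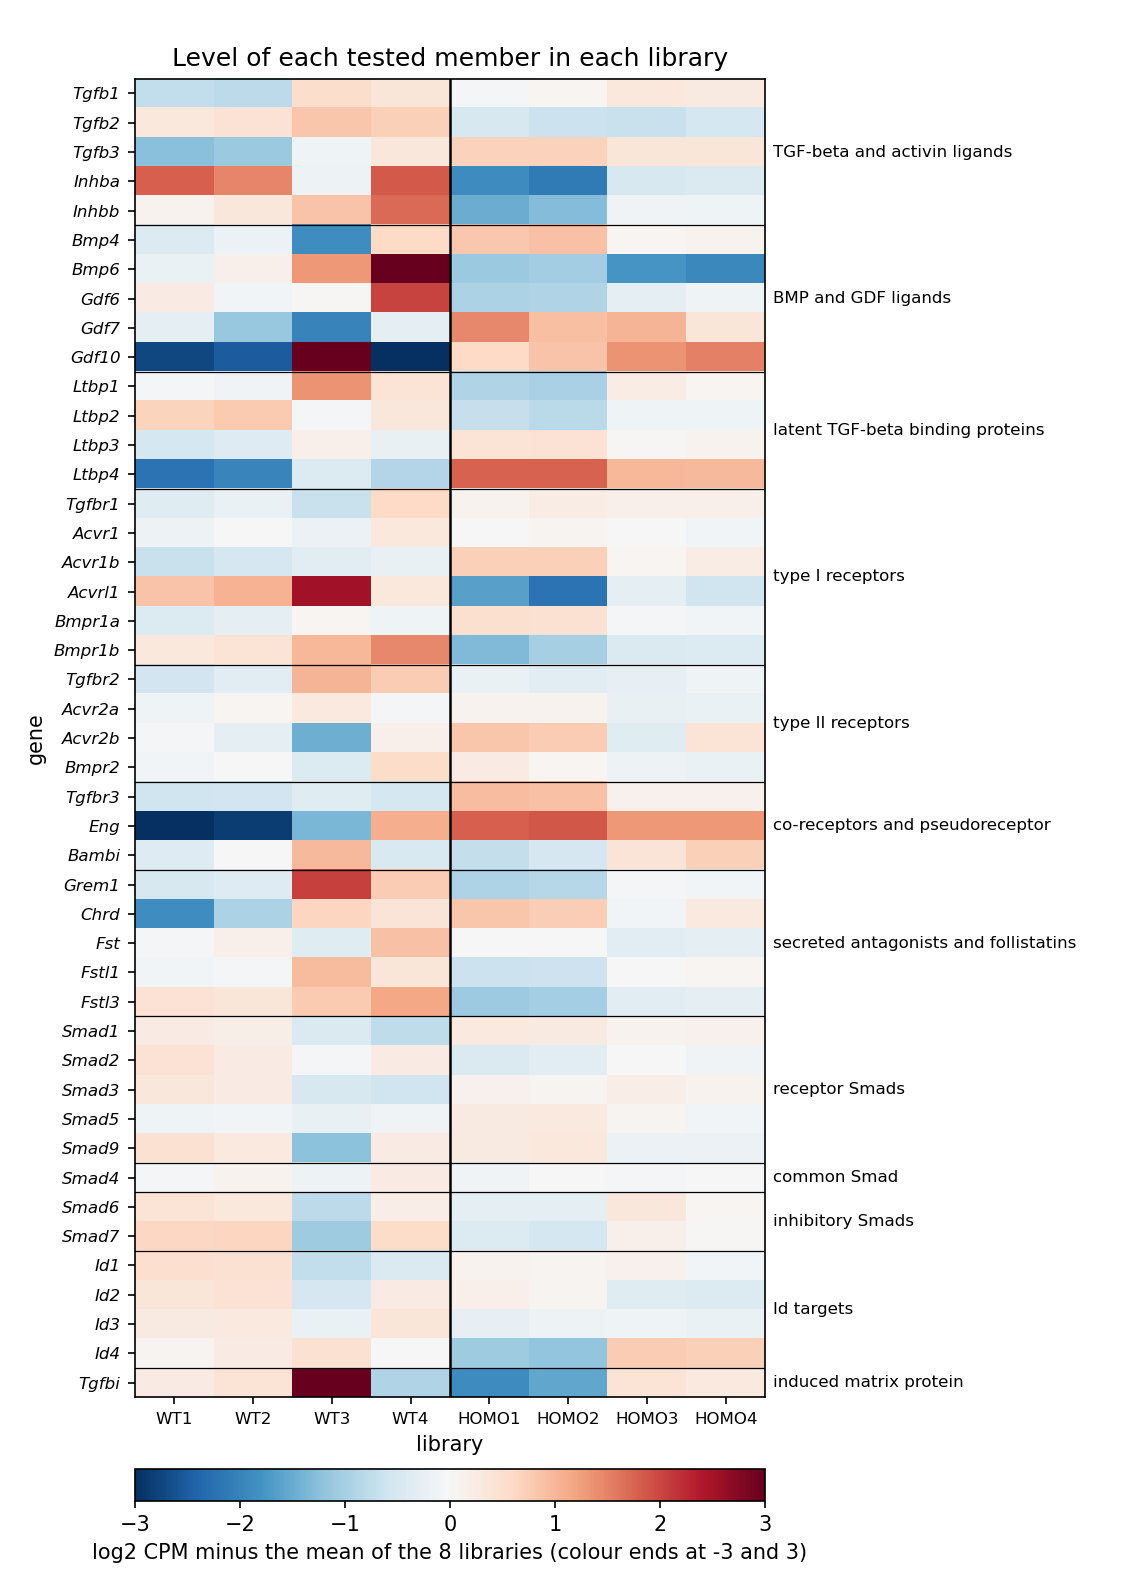
Each of the 45 tested members in each library, as log2 CPM minus the mean of the 8 libraries, grouped by role, with red above and blue below that mean. WT1 resembles WT2, HOMO1 resembles HOMO2 and HOMO3 resembles HOMO4, and WT3 holds the strongest colours in Gdf10, Acvrl1, Grem1 and Tgfbi and the lowest values of Smad6, Smad7 and Smad9.

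Among the WT libraries, WT3 was most often at an end of the range. It was the highest for 17 and the lowest for 18 of the 45 tested members, 35 in all, and it was highest or lowest in 69.0% of all genes tested. WT3 combined the highest Grem1 and the lowest Bmp4, Smad6, Smad7, Smad9, Id1, Id2 and Id3 of the WT libraries, which is a description of 1 library. Other ligands and Id4 went the other way, as WT3 also held the highest Bmp2, Gdf10 and Id4 of the WT libraries. In the 11 called members, the mean log2 CPM of HOMO1 and HOMO2 was farther from the WT mean than that of HOMO3 and HOMO4 in 9, and over all called genes this held for 81.2%. Proliferation markers also split the pairs, with the sum of 6 markers at 1138 and 1007 CPM in WT1 and WT2, 222 and 110 CPM in WT3 and WT4, 199 and 190 CPM in HOMO1 and HOMO2, and 829 and 760 CPM in HOMO3 and HOMO4. The smooth muscle and pericyte markers, 7 in number, summed to between 89.4 and 442 CPM in WT and between 17.8 and 179 CPM in HOMO libraries, the 6 mesothelial markers to between 52.8 and 235 CPM and between 106 and 152 CPM, and the 8 epithelial markers to between 1.13 and 7.52 CPM and between 6.91 and 18.9 CPM. Within these sums, single markers were called in both directions. The mesothelial Wt1 (log2 fold change 3.36) and the epithelial Cdh1 (2.77) were higher in HOMO, and Rgs5 of the pericyte list was lower (-5.20). Krt19, another mesothelial marker, had a log2 fold change of -3.06 and was not called. The part of these differences in the members' values was not tested, and fewer cells of a type and less RNA per cell cannot be told apart in bulk samples.

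Other genes of the pathway were counted on 7 lists. Of 114 genes listed, 84 were tested and 16 called (19.0%), 7 higher and 9 lower in HOMO. Over all genes tested, 12.1% were called, 5.94% higher and 6.18% lower, and the counts per list below stand beside these shares. The 9 tested among the other ligands and the 2 among the other receptors gave 0 calls, with 4 and 0 at an unadjusted p under 0.05. Among the other secreted antagonists, 2 of 8 were called, both higher: Fstl4, a follistatin-like protein (log2 fold change 3.49, SE 0.51, edgeR adjusted p = 0.00574), and Bmper, which binds BMPs outside the cell (1.24, SE 0.24, adjusted p = 0.0141).

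Of 17 genes tested that release or hold latent TGF-beta, 3 were called lower and 1 higher. Thbs1, or thrombospondin-1, an activator of latent TGF-beta, was among the lower ones, at 10550 to 14757 CPM in WT and 844 to 2607 CPM in HOMO libraries (log2 fold change -2.83, SE 0.43, edgeR adjusted p = 0.00707). Fbn1 and Fbn2 encode the fibrillins to which latent complexes attach, and they moved in opposite directions, Fbn1 from 427 to 735 CPM in WT to 238 to 348 CPM in HOMO (log2 fold change -1.04) and Fbn2 from at most 0.516 CPM to between 12.2 and 64.6 CPM (log2 fold change 7.34).

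Among the Smad regulators 3 of 20 were called. Pmepa1, a TGF-beta target that holds back receptor Smads, was lower (log2 fold change -1.56, SE 0.34), and Crebbp, a Smad co-activator, and Runx1, a Smad-binding factor, were higher (0.77 and 0.64). All 4 called of the 20 tested TGF-beta-induced genes were lower, among them Nox4, which makes reactive oxygen, at 7.20 to 23.5 CPM in WT and 3.93 to 5.87 CPM in HOMO libraries (log2 fold change -1.57, SE 0.38, edgeR adjusted p = 0.0318), and the matrix protein Tnc (-1.14). The median log2 fold change of this list was -0.82, beside -0.04 for all genes. The list did not move as one, with 15 negative and 5 positive log2 fold changes. Among the positive ones was the collagen gene Col1a1, higher in every HOMO library than in any WT library. It was not called (log2 fold change 0.82, SE 0.30, edgeR adjusted p = 0.0985). The BMP-induced genes were called in both directions, 3 of 8, with the homeobox gene Msx1 higher (1.44, SE 0.16) and Msx2 lower (-4.49, SE 1.07), and Tbx20, a T-box factor, higher (5.65, SE 0.97).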

How the data were processed

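Genes were counted in 8 pFB libraries, 4 WT and 4 HOMO, grouped by their labels. Before deposition the authors used fastp for trimming, STAR for alignment to mm10 and featureCounts for counting per gene; the deposited values are raw counts, used as deposited. The members and lists were chosen with earlier results of these data known. Genes were tested with edgeR 4.0.16 (R 4.3.3): TMM scaling, filterByExpr by genotype, quasi-likelihood F test, Benjamini-Hochberg adjustment over 14150 genes, with an absolute log2 fold change above 0.6, the thresholds of the study's methods. The SE is the absolute log2 fold change over the square root of F, and 2 was the prior count of log2 CPM values. Genes outside the test were compared over 70 assignments of libraries. Exon lengths and positions are from GENCODE M21 (GRCm38) and promoters from RefSeq (GRCm38.p6). Every member was named once; values per library were given for members called, without overlap, or differing over 4 times within a genotype with at least 1 CPM, and up to 3 called genes with the largest change per other list. From these lists 1 called gene that meets this rule is not reported here. Alternatives were RLE scaling, DESeq2 1.42.0, no filter, CPM above 1 in 4 libraries, limma-voom (limma 3.58.1) with sample weights, the replicate block, no fold threshold, each library left out and near-identical libraries summed; leaving out WT3 with WT4 was added after the data were seen. Scripts were tested on simulated counts of independent libraries with 200 changed genes. There, 6.45% of edgeR, 27.0% of DESeq2 and 5.56% of limma-voom calls were false. For changes of 1 and 2 on the log2 scale, edgeR recovered 11.1% and 76.8%, and DESeq2 42% and 93%. A gene not called may therefore still have changed. Same-numbered libraries did not deviate together (correlations from -0.124 to 0.014). Tables were made with Python 3.11.15, pandas 2.3.3, scipy 1.17.1 and matplotlib 3.10.9.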

Additional observations from a re-analysis of the deposited data

Results flagged for a closer look

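In 93 groups of 4 libraries of 1 genotype, over the members with counts, 7 held a highest or lowest library whose gap to its nearest neighbour took up more of the group's range than Dixon's 95% critical value allows, where chance gives about 1 in 20 groups. That share holds for 4 independent libraries, which the near-identical pairs may not be, so it cannot be set against the 7 groups here. WT3 was the flagged library in 5 of the 7. On the log2 CPM scale, Bmp2 stood at 3.19 in WT3, beside -2.59 to -2.31 in the other WT libraries, and Gdf10 at 7.34, beside -0.96 to 0.22. WT3 was low for 3 Smads, with Smad9 at 3.08 (others 4.58 to 4.77), Smad6 at 5.27 (others 6.25 to 6.45) and Smad7 at 5.23 (others 6.85 to 6.93). Gdf6 stood at 6.52 in WT4 (others 4.40 to 4.73), where genes of its chromosome, 4, were higher than in the other WT libraries by a median of 0.36 on the log2 scale. Id1 stood at 6.09 in HOMO4 (others 6.27 to 6.30), a difference that is small beside the spread of Id1 in WT.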

How the results depend on the processing

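All 11 called members kept their direction under every alternative that gave them an adjusted p. Against 11 members, 4 higher and 7 lower, 16 other pathway genes and 1716 genes in all, limma-voom with sample weights called 20 members, 10 of them higher, 37 other pathway genes and 3573 genes. DESeq2 called 14 members, 29 other pathway genes and 2913 genes, adding Inhbb, Gdf6, Eng and Nog, and gave no adjusted p to Bmp2, Bmp6, Gdf5 and Gdf10. With the replicate number as a block, edgeR called 6 members, 1 of them higher, 10 other pathway genes and 947 genes (6.69%); no library deviated most like its own number, so the libraries share only a number. With near-identical libraries summed, all 5 counts were 0, the smallest adjusted p of a member was 0.235, and 11 members had an unadjusted p under 0.05. Without both WT3 and WT4, an alternative added after the data were seen, 19 members, 10 of them higher, 25 other pathway genes and 3117 genes were called. Leaving out each library in turn gave 2 to 15 members, 1 to 7 higher, 1 to 8 lower, 6 to 25 other pathway genes and 507 to 2192 genes, lowest without HOMO1 or HOMO2 and highest without WT3. No filter on low counts left 9 members called, losing Gdf7 and Ltbp2. Members that changed sign were not called in the main comparison. Gdf10 went from -1.52 to 3.77 (voom), 2.84 (block) and 3.83 (without WT3 and WT4), and ran from -1.94 to 4.15 over single libraries left out. With voom, the log2 fold changes were 0.14 for Tgfbr2, 0.19 for Bambi, 0.035 for Grem1, -0.11 for Smad3, -0.31 for Smad9 and -0.40 for Id1. Without WT3 and WT4 they were 0.22 for Tgfbr2, 0.042 for Bmpr2, 0.26 for Bambi, 0.0067 for Grem1, -0.0070 for Smad1, -0.17 for Smad3, -0.29 for Smad9 and -0.42 for Id1. Acvr1 was -0.0070 with near-identical libraries summed. Over single libraries left out, Acvr1 ran from -0.054 to 0.13, Bmpr2 from -0.19 to 0.16, Bambi from -0.33 to 0.36, Smad9 from -0.26 to 0.16, Id1 from -0.17 to 0.21 and Id4 from -0.44 to 0.14. The log2 ratio of mean CPM of Bmp2 ran from -2.13 to 2.94 over single libraries left out, the higher value without WT3, and that of Nog ran from -4.19 to -2.88 without single HOMO libraries, where the smallest permutation p is 0.0571. The cause of these shifts was not tested. Depth limits Gdf5, Bmp2, Nog and Gdf7, which had few counts.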
